A study of Mus musculus with 19 samples.

Results

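Genes of Bergmann glia and astrocytes were followed across cells and tumors of the mouse cerebellum: Aqp4, Gfap, Slc1a2, Aldh1l1, Gja1, Gjb6, S100b, Gdf10, Aldoc and Cst3. They were taken by symbol, as a list of 10 chosen with earlier results of these data known. They were among the 18193 genes that had a probe set of their own, and all 10 were among the 12148 genes tested. The study measured 19 arrays in 5 groups, all of strain C57BL/6, taken straight from the cerebellum with no culture and no treatment of the cells. NEP tumor (4 arrays) held tumor cells of Nestin-CreERT2/Ptch1C/C mice, and GNP tumor (4 arrays) held those of Math1-CreERT2/Ptch1C/C mice. NEP (4 arrays) held Nestin+ progenitors, GNP (4 arrays) held Math1+ progenitors, and NSC (3 arrays, numbered 1, 2 and 6) held CD133+, Lin- progenitors. The design asked what sets NEPs apart from the other progenitors, and how alike the tumors of the 2 origins are. In both tumor groups Ptch1, the receptor that restrains Hedgehog signalling, carries the C/C alleles, and the inducible recombinase CreERT2 is driven by the promoter of Nestin or of Math1. The labels give no age, sex, time of induction or pooling of animals. They do not say that the arrays of a group came from separate animals, so the p-values cover array-to-array spread only, which may be technical.

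Bergmann glia are the radial astrocytes of the cerebellum, whose fibres cross the molecular layer and guide migrating granule neurons. With other astrocytes they take up glutamate and potassium, pass ions and metabolites through gap junctions, and control water at the contacts with blood vessels. Several of their genes are also active in Nestin-expressing and radial glial progenitors, so the list marks the astroglial lineage and not mature astrocytes alone. Granule neuron progenitors, which express Math1 (gene Atoh1), form a separate neuronal lineage and are the usual cell of origin of Hedgehog-driven medulloblastoma.

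All levels are log2 probe set signals as deposited, and levels of different genes are not set against each other because each probe set has its own affinity. Where a gene had several probe sets, the brightest one on average stands for it. NEP and GNP share a number in their array titles, and NSC and both tumor groups share another. The labels do not say what these numbers stand for, and the sets are called runs here. The poly-A control RNAs added before labelling read 8.59 to 9.23 in the first run (8 arrays) and 6.17 to 7.18 in the second (11 arrays). NEP against GNP, NEP tumor against GNP tumor, and either tumor against NSC lie within a run. For NEP or GNP against NSC, and for a tumor against its progenitor, run and group cannot be told apart. Ptch1 read 11.39 to 11.59 in NEP tumor, 11.18 to 11.24 in GNP tumor, 10.27 to 10.90 in NEP, 10.17 to 10.38 in GNP and 10.24 to 10.29 in NSC. The sources used here do not place that probe set relative to any deleted exons, so it does not check the deletion. In bulk RNA, fewer cells of a type and less RNA per cell cannot be told apart.

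Across the 5 groups, the glial genes were highest in NEP and lowest in GNP. NEP had the highest mean for 7 of the 10 genes, and GNP the lowest for 9 of them. Gfap was highest in GNP tumor (on 2 of its 3 probe sets), S100b in NEP tumor and Gjb6 in NSC, and Gja1 was lowest in NEP tumor. Both tumor groups lay between NEP and GNP for 7 genes (Aqp4, Slc1a2, Aldh1l1, Gjb6, Gdf10, Aldoc and Cst3).

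**Figure D1:**
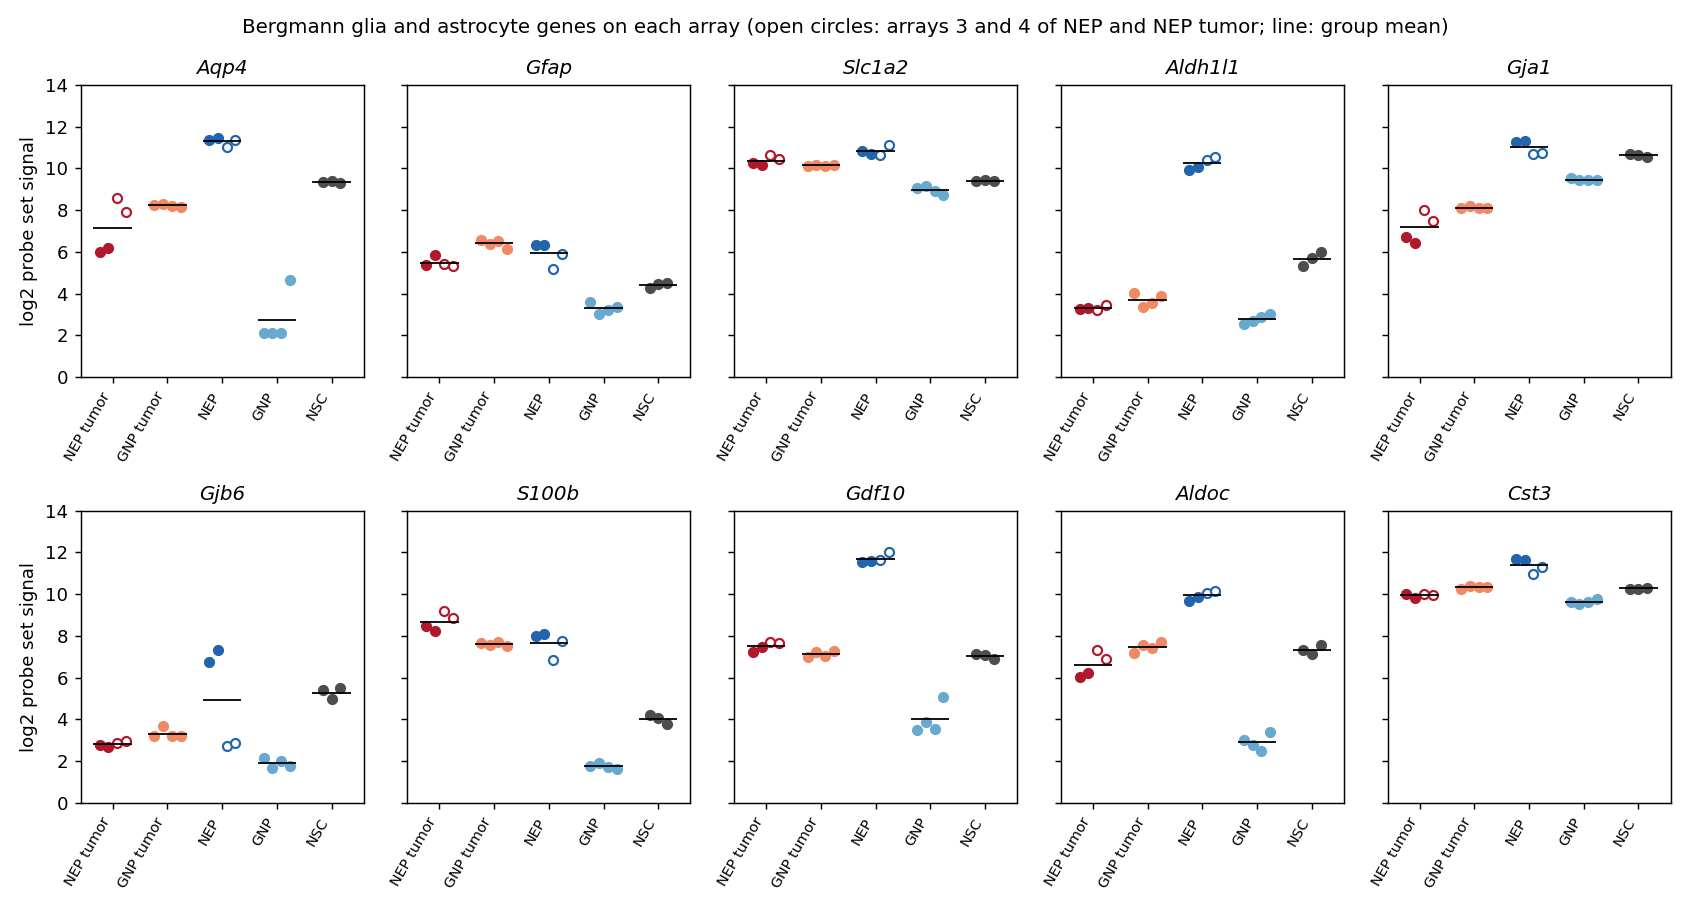
Log2 probe set signal (vertical axis, same scale in each panel) of the 10 genes on all 19 arrays, with groups on the horizontal axis, 1 point per array and a line at each group mean. Open circles are arrays 3 and 4 of NEP and of NEP tumor; Gjb6 parts in NEP (2.71 and 2.89 on those arrays) and Aqp4 parts in NEP tumor (8.56 and 7.91).

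Among the channel genes, Aqp4 encodes the water channel that astrocytes place at their contacts with blood vessels. Its signal was 5.97, 6.20, 8.56 and 7.91 on NEP tumor arrays 1 to 4, and 8.27, 8.31, 8.21 and 8.15 on the GNP tumor arrays. In NEP it was 11.37, 11.48, 11.01 and 11.35, against 2.09, 2.10, 2.12 and 4.67 in GNP, and NSC read 9.36, 9.41 and 9.31. Every group kept apart from its neighbours in the order NEP, NSC, GNP tumor, NEP tumor, GNP, except the 2 tumor groups, which overlapped. The NEP tumor arrays fell into a low pair (1 and 2) and a high pair (3 and 4), and 3 of the 4 GNP arrays lay under their array's median. NEP minus GNP was 8.56 ± 0.55 (SE), with an adjusted p of 4.94e-10 by limma, and 9.20 without GNP array 4. Because of the GNP arrays under the median, it is a difference of array signal.

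Gja1 and Gjb6 encode the main connexins of astrocyte gap junctions. Gja1 read 6.72, 6.44, 8.03 and 7.50 in NEP tumor, and 8.11, 8.18, 8.09 and 8.10 in GNP tumor. Its levels were 11.27, 11.32, 10.71 and 10.76 in NEP, against 9.56, 9.43, 9.43 and 9.44 in GNP, and NSC had 10.68, 10.63 and 10.55. No adjacent groups overlapped. For Gja1 alone among the 10, both tumor groups lay below both progenitor groups. The log2 difference was -3.84 ± 0.24 (SE) for NEP tumor minus NEP (limma adjusted p = 4.3e-10) and -1.35 ± 0.24 for GNP tumor minus GNP (limma adjusted p = 0.000217).

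Gjb6 split the NEP group. In the tumors its signal was 2.75, 2.66, 2.87 and 2.95 (NEP tumor) and 3.19, 3.68, 3.21 and 3.19 (GNP tumor). It read 6.74 and 7.33 on NEP arrays 1 and 2 and 2.71 and 2.89 on arrays 3 and 4, against 2.15, 1.67, 1.99 and 1.77 in GNP. NSC lay at 5.40, 4.98 and 5.48, between the 2 pairs of NEP arrays. All GNP arrays were under their array's median, so differences from GNP are differences of array signal. Gjb2, a connexin gene of astrocytes and of the meninges and the nearest protein-coding neighbour of Gjb6 on one side (Cryl1 is on the other), parted in the same arrays: 7.35 and 7.53 on NEP arrays 1 and 2, and 2.59 and 2.39 on arrays 3 and 4. The split was also seen in Foxc1, a transcription factor of the meninges and one of the 2 genes nearest to Gjb6 over the 19 arrays (7.14, 7.11, 3.00 and 3.20 on NEP arrays 1 to 4). Gja1 was lower on NEP arrays 3 and 4 too, by a far smaller step (difference of the pair means -0.56, against -4.24 for Gjb6 and -4.95 for Gjb2).

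**Figure D2:**
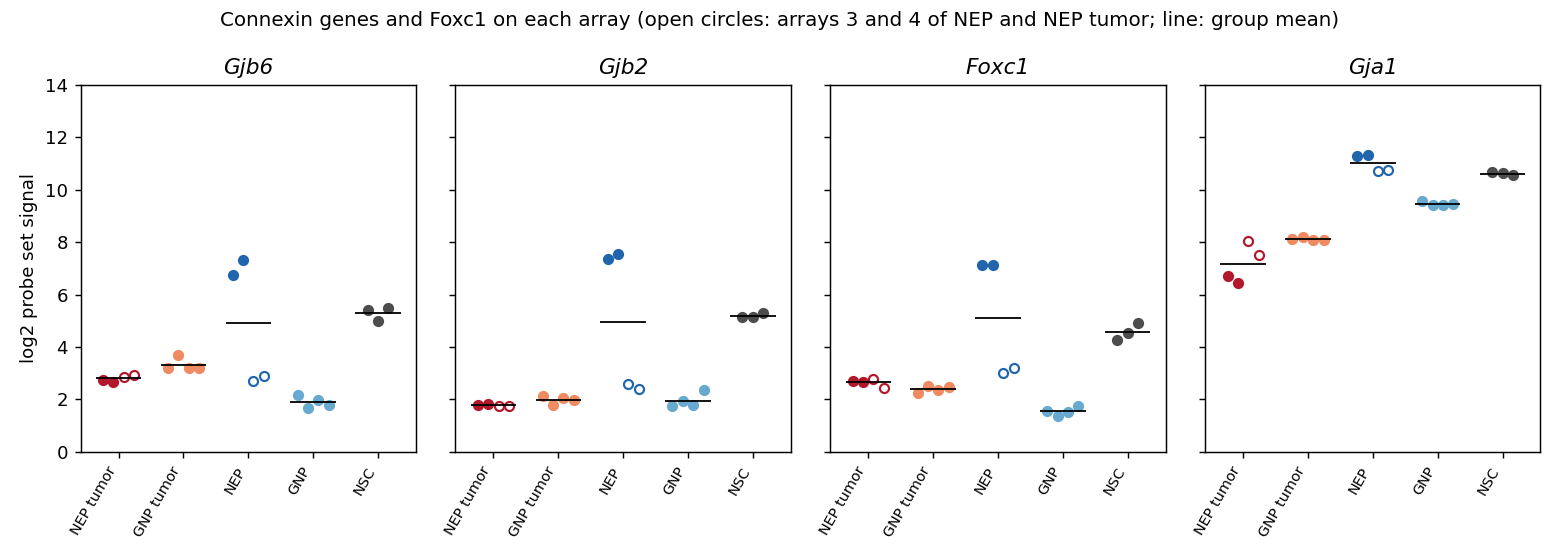
Log2 probe set signal of Gjb6, Gjb2, Foxc1 and Gja1 on each array (vertical axis), with groups on the horizontal axis, 1 point per array and a line at the group mean. For Gjb6, Gjb2 and Foxc1 the open NEP circles (arrays 3 and 4) lie between 2.39 and 3.20 and the filled ones (arrays 1 and 2) between 6.74 and 7.53, while the 4 NEP points of Gja1 stay between 10.71 and 11.32.

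The stretches of 250 bases before the annotated starts of Gjb6 and Gjb2 are shown because the neighbouring genes moved together, those of S100b because it alone was called higher in NEP tumor than in both NEP and GNP tumor, and that of Aldoc because it had the profile nearest to the members' mean. They are RefSeq sequences on GRCm38.p6, 5′ to 3′ on the strand of the gene, for Gjb6 chr14:57133612-57133861 (minus strand), Gjb2 chr14:57104703-57104952 (minus strand), S100b chr10:76253586-76253835 (plus strand) and Aldoc chr11:78322823-78323072 (plus strand, the first of 2 starts). Capitals mark matches to the motifs given after them.
Gjb6: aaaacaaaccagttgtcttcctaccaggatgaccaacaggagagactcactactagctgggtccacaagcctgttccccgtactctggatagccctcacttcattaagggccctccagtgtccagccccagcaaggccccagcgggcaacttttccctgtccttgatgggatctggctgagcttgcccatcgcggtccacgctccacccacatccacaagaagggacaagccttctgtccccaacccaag
Gjb2: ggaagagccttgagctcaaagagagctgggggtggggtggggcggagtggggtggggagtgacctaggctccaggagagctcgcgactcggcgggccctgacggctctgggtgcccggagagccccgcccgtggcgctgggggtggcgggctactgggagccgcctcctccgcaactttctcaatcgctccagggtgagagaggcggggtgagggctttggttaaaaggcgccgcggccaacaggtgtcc
S100b: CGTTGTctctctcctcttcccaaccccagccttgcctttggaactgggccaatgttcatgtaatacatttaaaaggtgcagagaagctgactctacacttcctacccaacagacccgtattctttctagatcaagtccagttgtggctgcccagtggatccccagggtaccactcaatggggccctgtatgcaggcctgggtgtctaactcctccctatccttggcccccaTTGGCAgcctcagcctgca
Aldoc: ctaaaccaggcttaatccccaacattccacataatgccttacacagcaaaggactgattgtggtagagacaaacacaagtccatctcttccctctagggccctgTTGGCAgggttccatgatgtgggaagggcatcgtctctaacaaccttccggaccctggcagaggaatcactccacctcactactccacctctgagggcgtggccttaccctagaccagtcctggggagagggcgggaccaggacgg
The motifs searched, on both strands, were the full NFI site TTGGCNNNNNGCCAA, the short NFI site TTGGCA, the STAT site TTCNNNGAA, a SOX core ACAANG and TATAAA. The short site can overlap a full site. S100b held 1 short NFI site and 1 SOX core, the Aldoc window shown held 1 short NFI site, and the windows of Gjb6 and Gjb2 held none of the 5. The window of the second Aldoc start, not shown, held 2 STAT sites and no match to the other motifs. Of all 32851 promoter windows of this length, 12.3% hold the short NFI site, 36.3% the SOX core, 7.02% the STAT site, 12.4% TATAAA and 0.0365% the full site. A match here describes letters only.

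Slc1a2 encodes the glutamate transporter that clears most synaptic glutamate in the forebrain, and Aldh1l1 a folate-metabolising enzyme used as a pan-astrocyte marker. Slc1a2 read 10.27, 10.17, 10.63 and 10.44 in NEP tumor and 10.13, 10.18, 10.11 and 10.17 in GNP tumor. NEP had 10.82, 10.67, 10.64 and 11.12, against 9.04, 9.17, 8.92 and 8.73 in GNP, with NSC at 9.40, 9.43 and 9.40. The tumor groups overlapped each other and lay above both GNP and NSC.

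Every NEP array of Aldh1l1 lay above every array of the other groups, and NSC came next. The tumors read 3.25, 3.29, 3.23 and 3.46 (NEP tumor) and 4.04, 3.34, 3.56 and 3.87 (GNP tumor). Its signal was 9.94, 10.07, 10.40 and 10.53 in NEP, against 2.53, 2.69, 2.86 and 3.01 in GNP and 5.31, 5.73 and 6.00 in NSC. NEP tumor was below NEP with a log2 difference of -6.93 ± 0.17 (limma adjusted p = 2.23e-15), rank 7 by size among all genes tested, and GNP tumor above GNP by 0.93 ± 0.17 (limma adjusted p = 0.000262).

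Aldoc encodes a brain form of the glycolytic enzyme aldolase, found in astrocytes and in bands of Purkinje cells. It read 6.03, 6.20, 7.30 and 6.88 in NEP tumor, and 7.20, 7.57, 7.40 and 7.69 in GNP tumor. In NEP the values were 9.69, 9.87, 10.04 and 10.16, against 3.02, 2.75, 2.50 and 3.40 in GNP. NSC had 7.32, 7.15 and 7.57, a range that overlapped both tumor groups.

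Gfap encodes an intermediate filament of mature and reactive astrocytes, and S100b a calcium-binding protein of Bergmann glia and astrocytes. Gfap read 5.37, 5.84, 5.40 and 5.32 in NEP tumor and 6.59, 6.40, 6.54 and 6.12 in GNP tumor. NEP had 6.34, 6.31, 5.18 and 5.90, against 3.60, 3.02, 3.22 and 3.36 in GNP, and NSC 4.26, 4.46 and 4.52. The NEP arrays overlapped those of both tumor groups, and every tumor array lay above every NSC and GNP array.

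S100b read 8.45, 8.24, 9.20 and 8.85 in NEP tumor, and 7.66, 7.57, 7.69 and 7.52 in GNP tumor. NEP had 7.99, 8.09, 6.85 and 7.76, against 1.78, 1.90, 1.72 and 1.61 in GNP, all under the array median, and NSC 4.23, 4.07 and 3.77. Each NEP tumor array lay above each array of the other groups. A second S100b probe set gave the same order of group means: 7.71 in NEP tumor, 6.54 in GNP tumor, 6.62 in NEP, 2.09 in GNP and 3.15 in NSC.

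Gdf10, a secreted factor of the TGF-beta family known from Bergmann glia, and Cst3, an inhibitor of cysteine proteases that astrocytes, microglia and choroid plexus secrete, completed the list. Gdf10 read 7.25, 7.49, 7.73 and 7.66 in NEP tumor, and 6.98, 7.23, 7.03 and 7.26 in GNP tumor. In NEP it had 11.54, 11.61, 11.66 and 12.02, against 3.47, 3.89, 3.55 and 5.08 in GNP, with NSC at 7.12, 7.08 and 6.89. The tumor and NSC arrays thus lay in 1 narrow band below every NEP array and above every GNP array. Cst3 spanned a smaller range: 9.83 to 10.01 in NEP tumor, 10.26, 10.40, 10.36 and 10.34 in GNP tumor, 11.68, 11.66, 10.97 and 11.30 in NEP, 9.64, 9.53, 9.63 and 9.77 in GNP, and 10.26, 10.26 and 10.30 in NSC.

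Between the progenitors, all 10 genes were called higher in NEP than in GNP (limma over all 19 arrays, Benjamini-Hochberg adjusted p under 0.05), with differences between 1.55 for Gja1 and 8.56 for Aqp4 and a median of 4.47. Among all genes tested, 69.5% were called in this comparison, 29.6% higher and 39.9% lower, and the median difference was -0.11. After Aqp4 came Gdf10 (7.71 ± 0.25, SE), Aldh1l1 (7.47 ± 0.17), Aldoc (7.02 ± 0.24), S100b (5.92 ± 0.23), Gjb6 (3.02 ± 0.75) and Gfap (2.63 ± 0.21). The steps of Slc1a2 (1.85 ± 0.12), Cst3 (1.76 ± 0.12) and Gja1 (1.55 ± 0.24) were smaller, and these 3 genes also had high signals in GNP. All 10 stayed called with NEP arrays 3 and 4 only and with arrays 1 and 2 only, which for Gjb6 gave 0.90 (limma adjusted p = 0.000229) and 5.14 (limma adjusted p = 2.04e-13). These pairs were chosen after seeing the data, and leaving out either pair takes the split of Gjb6 out of its variance. Every tested microglia and macrophage gene was called higher in NEP than in GNP. So was each pericyte, fibroblast and meningeal or oligodendrocyte lineage gene but Pdgfra (-0.05), and each endothelial gene but Slco1a4 (-1.70). All neural stem cell and radial glia genes were too, led by Tnc (8.52), Ednrb (8.18) and Hopx (6.60). No granule neuron progenitor gene was called higher. The part of these cell types was not tested.

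Genes of other cell types moved with the split of the NEP arrays. All 14 tested microglia and macrophage genes read lower on both NEP arrays 3 and 4 than on both arrays 1 and 2, as did 14 of 15 pericyte, fibroblast and meningeal genes, 11 of 12 endothelial genes, 8 of 9 oligodendrocyte lineage genes and 6 of the 10 glial genes, beside 23.9% of all genes tested. Of the 40 other astrocyte and Bergmann glia genes, 11 were lower there and 9 higher. Here and below, Cspg4 and Pdgfra count in both the pericyte, fibroblast and meningeal list and the oligodendrocyte lineage list. All 9 differentiating neuron genes and 7 of 9 granule neuron progenitor genes read higher on arrays 3 and 4, beside 39.9% of all genes, and Atoh1 had 2.85, 2.38, 5.67 and 4.90 on NEP arrays 1 to 4. The log2 of the summed microglial signal was 6.37 to 13.32 over the NEP arrays and 5.86 to 5.99 over the GNP arrays. On NEP arrays 1 to 4, the microglial markers C1qa read 9.78, 9.79, 4.58 and 2.03 and Cx3cr1 8.83, 8.70, 3.74 and 3.03. The summed pericyte, fibroblast and meningeal signal was 11.59 to 14.18 over NEP and 10.24 to 10.45 over GNP. On NEP array 4, 10 of the 15 microglial genes were under the array median. On that array Aqp4, Aldh1l1, Gdf10 and Aldoc were at 11.35, 10.53, 12.02 and 10.16. Gfap, Slc1a2, Gja1, Gjb6, S100b and Cst3 were at 5.90, 11.12, 10.76, 2.89, 7.76 and 11.30. Aldh1l1, Gdf10 and Aldoc were higher on NEP arrays 3 and 4 than on arrays 1 and 2, by 0.46, 0.26 and 0.32, whereas Gfap, S100b, Gja1, Cst3 and Aqp4 were lower, with differences of -0.79, -0.74, -0.56, -0.53 and -0.25. The part of these cell types in the levels of Gjb6 and of the other glial genes was not tested.

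Between the tumors the differences were smaller and mixed. S100b was called higher in NEP tumor than in GNP tumor, by 1.07 ± 0.23 (SE; limma adjusted p = 0.00294). Gja1 (-0.95 ± 0.24, limma adjusted p = 0.0101), Gfap (-0.93 ± 0.21, limma adjusted p = 0.00438), Aldoc (-0.86 ± 0.24, limma adjusted p = 0.0157) and Cst3 (-0.39 ± 0.12, limma adjusted p = 0.0238) were called lower, though Gja1 lost its call with the mean of all its probe sets (-0.56, limma adjusted p = 0.0529). The other 5 were not called: Aqp4 had -1.08 ± 0.55, Gjb6 -0.51 ± 0.75, Aldh1l1 -0.40 ± 0.17, Gdf10 0.41 ± 0.25 and Slc1a2 0.23 ± 0.12. So 1 gene was called higher and 4 lower, beside 15.5% higher and 8.10% lower of all genes (23.6% in all), with a median of -0.45 for the list and 0.05 for all genes. The SE of Gjb6 carries the split of the NEP arrays, since 1 variance per gene serves all groups; fitted on the 2 tumor groups alone, its difference of -0.51 had a limma adjusted p of 0.0126, and that of Gdf10 0.0256.

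**Figure D3:**
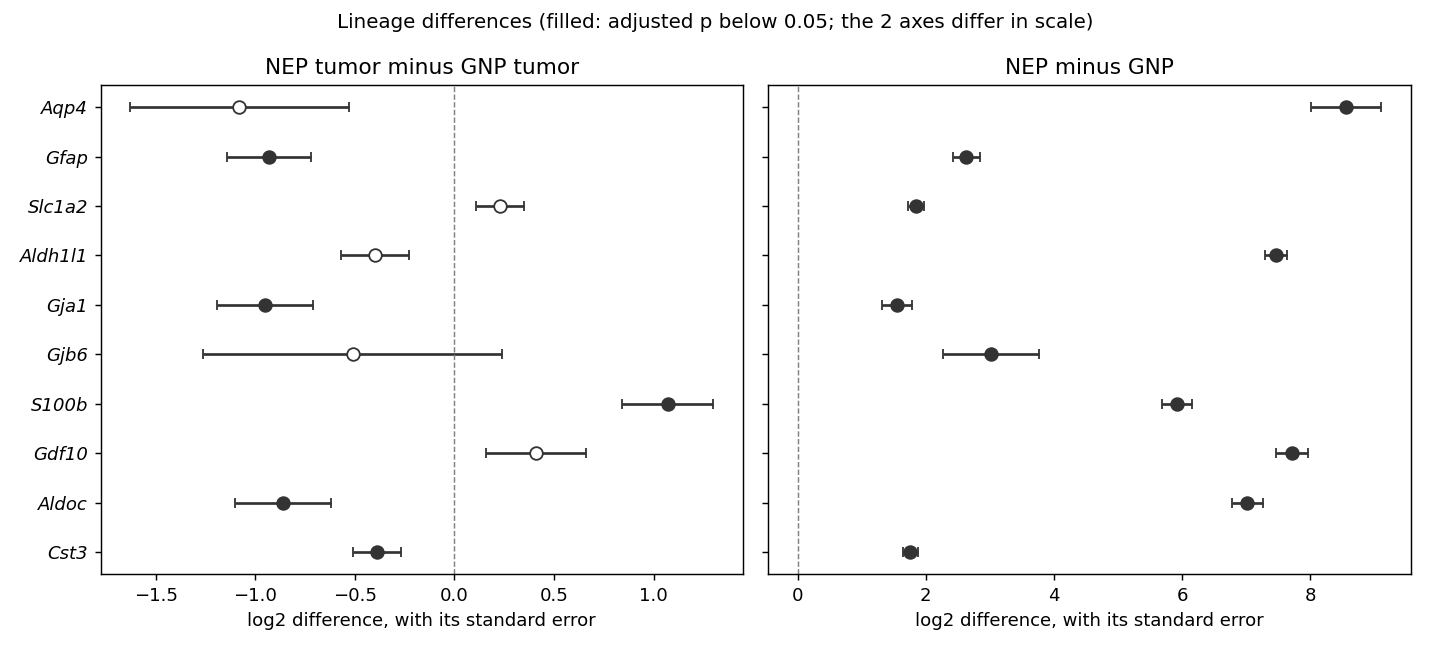
Log2 differences (horizontal axes, which differ in scale) of each gene for NEP tumor minus GNP tumor (left) and NEP minus GNP (right), with bars of 1 standard error and filled points where the limma adjusted p was below 0.05. On the right all 10 points lie above 0, between 1.55 and 8.56; on the left they lie between -1.08 and 1.07, with 5 filled.

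The lower calls of Gja1 and Aldoc depended on which NEP tumor arrays were used. The pairs of arrays were chosen after seeing the data. On NEP tumor arrays 3 and 4, 7 of the 10 genes read higher than on both arrays 1 and 2 and none lower, beside 26.3% higher and 29.4% lower of all genes. The steps were 2.15 for Aqp4, 1.18 for Gja1, 0.97 for Aldoc, 0.68 for S100b, 0.33 for Gdf10, 0.32 for Slc1a2 and 0.20 for Gjb6. With arrays 3 and 4 only, Gfap alone remained called lower than in GNP tumor (-1.05, limma adjusted p = 0.012), S100b was higher by 1.42 (limma adjusted p = 0.00164), and Aqp4 had a difference of -0.00. Gja1 and Aldoc then had -0.36 and -0.37 (limma adjusted p = 0.17 and 0.285). With arrays 1 and 2 only, Aqp4 was called lower (-2.15, limma adjusted p = 0.0093), as were Gja1 (-1.54), Aldoc (-1.35) and Gfap (-0.81), and S100b was not called (0.73, limma adjusted p = 0.0508). Cst3 kept about its size with either pair and lost its call with both: -0.36 with arrays 3 and 4 (limma adjusted p = 0.119) and -0.42 with arrays 1 and 2 (limma adjusted p = 0.0645).

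Markers of other cells ran higher on the same 2 arrays. All 12 tested endothelial genes and 13 of 14 microglia and macrophage genes read higher on both NEP tumor arrays 3 and 4 than on arrays 1 and 2. So did 11 of 15 pericyte, fibroblast and meningeal genes, 24 of 40 other astrocyte and Bergmann glia genes and 8 of 9 differentiating neuron genes. The count was 5 of 9 for oligodendrocyte lineage genes, 5 of 9 for granule neuron progenitor genes and 4 of 7 for ependymal and choroid plexus genes. Of all genes tested, 26.3% read higher there and 29.4% lower. Lower there were 8 of the 40 astrocyte genes, 2 granule neuron progenitor genes and 1 ependymal and choroid plexus gene. C1qa read 4.70, 4.95, 6.84 and 6.16 on NEP tumor arrays 1 to 4, and 6.71, 6.82, 6.53 and 6.73 in GNP tumor. Cx3cr1 read 3.36, 3.42, 4.48 and 3.99 in NEP tumor, and 3.62, 3.86, 3.75 and 4.12 in GNP tumor. No microglia and macrophage gene was called between the tumor groups, though the SE of these genes also carries the split of the NEP arrays. The log2 of the summed microglial signal was 8.66 to 9.90 in NEP tumor and 10.26 to 10.32 in GNP tumor, and that of the endothelial genes was 8.42 to 9.61 in NEP tumor and 8.58 to 8.74 in GNP tumor. Their part in the differences of Aqp4, Gja1 and Aldoc was not tested.

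**Figure D4:**
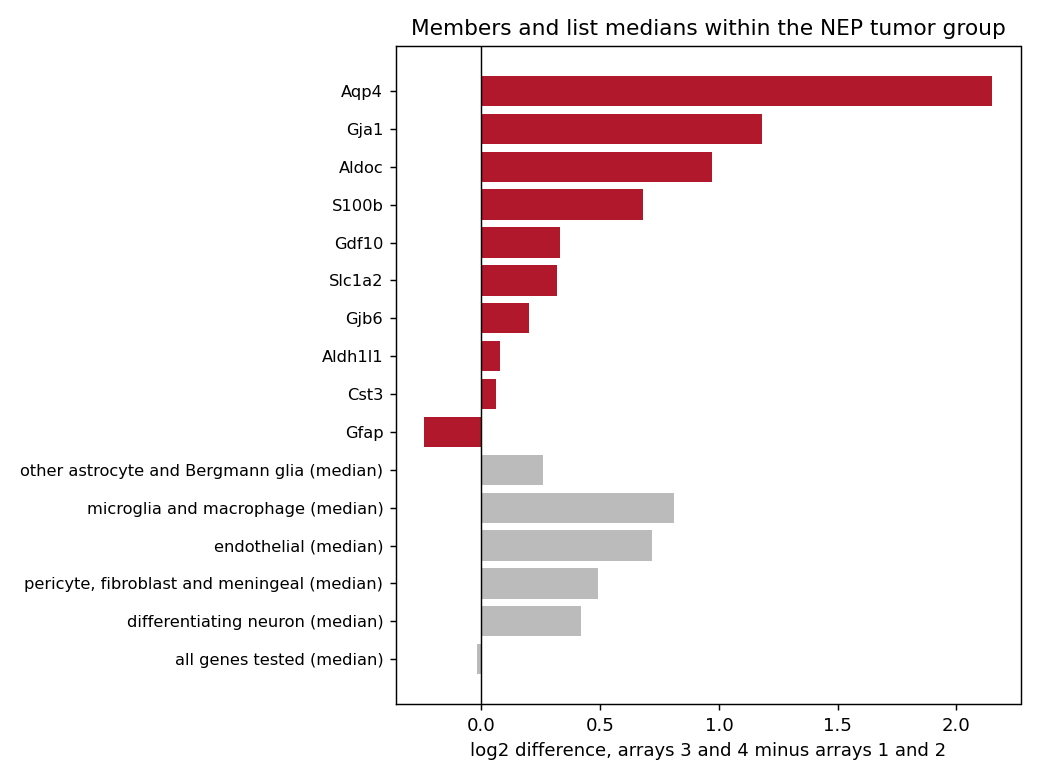
Difference between the mean of NEP tumor arrays 3 and 4 and the mean of arrays 1 and 2 (log2, horizontal axis) for each of the 10 genes (red bars) and as the median of 5 gene lists and of all genes tested (grey bars). Aqp4 (2.15), Gja1 (1.18) and Aldoc (0.97) have the longest bars, Gfap (-0.24) points the other way, and all genes together sit at -0.02.

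Set against their progenitors, the 2 tumor groups moved in opposite directions for most of the list. NEP tumor was called lower than NEP for 8 genes and higher for 1, S100b (1.01 ± 0.23, SE; limma adjusted p = 0.000915). Of all genes tested 68.9% were called there, 36.2% higher and 32.6% lower, and the median was -2.72 for the list and 0.05 for all genes. The lower calls were Aldh1l1, Gdf10 (-4.17 ± 0.25), Aqp4 (-4.14 ± 0.55), Gja1, Aldoc (-3.34 ± 0.24), Gjb6 (-2.11 ± 0.75), Cst3 (-1.45 ± 0.12) and Slc1a2 (-0.43 ± 0.12), and Gfap was not called (-0.45 ± 0.21, limma adjusted p = 0.0653). Gfap was called lower on both of its other probe sets (-0.87 and -1.07, limma adjusted p = 0.00142 and 0.00899), with the mean of all 3 (-0.80) and with array weights (-0.84). With NEP arrays 3 and 4 only, the Gjb6 difference was 0.01 (limma adjusted p = 0.965). Slc1a2 gave -0.01 once arrays were centred on the median gene. Markers of other cells were lower too: 12 of 15 pericyte, fibroblast and meningeal genes were called lower and 2 higher, 10 of 12 endothelial genes lower and 1 higher, 6 of 9 oligodendrocyte lineage genes lower and 1 higher, and 3 of 14 microglial genes lower. Pdgfra (called higher) and Cspg4 (called lower) were counted in both the pericyte and the oligodendrocyte list. The log2 of the summed pericyte, fibroblast and meningeal signal was 10.78 to 11.50 in NEP tumor and 11.59 to 14.18 in NEP. The part of these other cells in the glial differences was not tested.

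GNP tumor was called higher than GNP for 8 genes and lower for Gja1, beside 18.5% higher and 31.4% lower of all genes (49.8% in all). The list median was 2.27, and that of all genes -0.08. The higher calls were S100b (5.86 ± 0.23, SE), Aqp4 (5.49 ± 0.55), Aldoc (4.54 ± 0.24), Gdf10 (3.12 ± 0.25), Gfap (3.11 ± 0.21), Slc1a2 (1.18 ± 0.12), Aldh1l1 and Cst3 (0.70 ± 0.12). Gjb6 was not called (1.42 ± 0.75, limma adjusted p = 0.128), though its 4 GNP tumor arrays all lay above its 4 GNP arrays; fitted on those 2 groups alone it had a limma adjusted p of 1.12e-05. Microglial genes moved with these genes, 9 of 14 being called higher in GNP tumor than in GNP, as did 7 of 15 pericyte, fibroblast and meningeal genes and 5 of 9 oligodendrocyte lineage genes. The log2 of the summed microglial signal was 10.26 to 10.32 in GNP tumor and 5.86 to 5.99 in GNP. Their part in the glial differences was not tested.

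**Figure D5:**
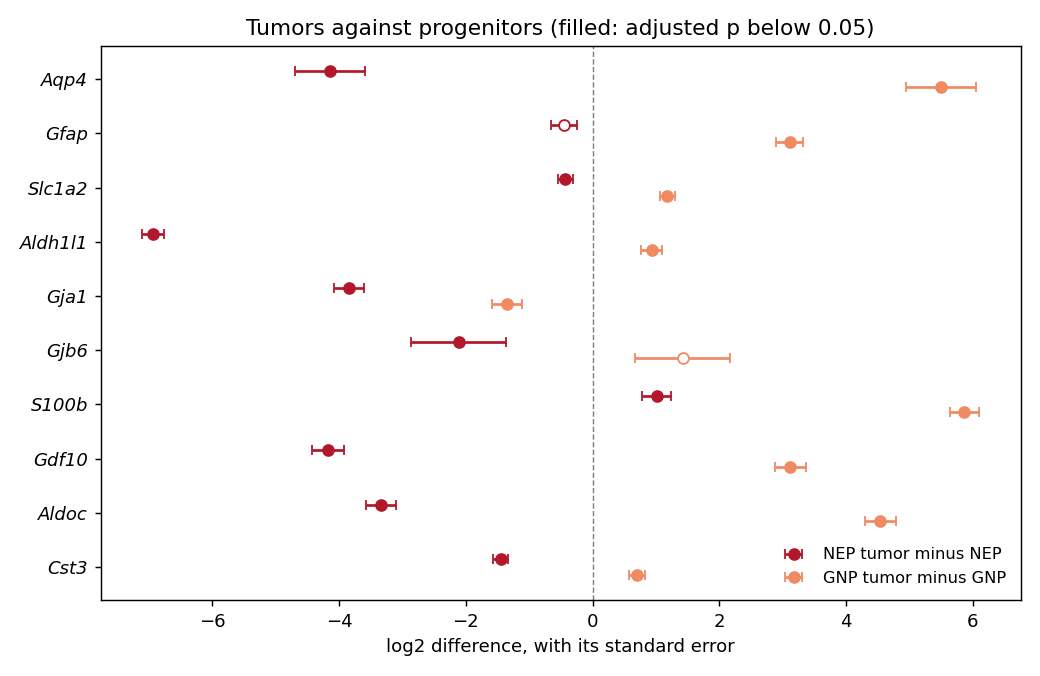
Log2 difference (horizontal axis) of each gene for NEP tumor minus NEP (dark red) and GNP tumor minus GNP (orange), with bars of 1 standard error and filled points where the limma adjusted p was below 0.05. For 8 genes the dark red point lies below 0 and the orange one above; Gja1 is below 0 in both (-3.84 and -1.35) and S100b above 0 in both (1.01 and 5.86).

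The lineage difference itself was unequal between tumors and progenitors. The tumor difference (NEP tumor minus GNP tumor) minus the progenitor difference (NEP minus GNP) was called below 0 for all 10 genes, with values between -9.63 for Aqp4 and -1.62 for Slc1a2 and a median of -4.21. Of all genes tested, 61.9% were called in this interaction, 25.2% lower and 36.7% higher, with a median of 0.15. A shift common to both groups of a run drops out of this difference. Also called below 0 were 12 of 14 microglial genes, 13 of 15 pericyte, fibroblast and meningeal genes, 10 of 12 endothelial genes and 8 of 9 oligodendrocyte lineage genes. In each of the last 3 lists 1 gene was called above 0, and in the pericyte and oligodendrocyte lists it was the same gene, Pdgfra (0.62). Cspg4 (-1.21) was also counted in both. The part of these cell types in the interaction was not tested.

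Against NSC the tumors differed gene by gene. NEP tumor was called higher for S100b (4.66 ± 0.25, SE), Gfap (1.07 ± 0.23) and Slc1a2 (0.97 ± 0.12), and lower for Gja1 (-3.45 ± 0.26), Gjb6 (-2.48 ± 0.81), Aldh1l1 (-2.37 ± 0.19), Aqp4 (-2.20 ± 0.59), Aldoc (-0.75 ± 0.26) and Cst3 (-0.32 ± 0.13), with Gdf10 not called. Of all genes, 44.3% were called, 23.9% higher and 20.4% lower. With NEP tumor arrays 3 and 4 only, the lower calls of Aqp4 (-1.13, limma adjusted p = 0.124) and Aldoc (-0.26, limma adjusted p = 0.411) were lost with a smaller difference. Those of Gjb6 (-2.38, limma adjusted p = 0.0845) and Cst3 (-0.29, limma adjusted p = 0.162) were lost at about the same size with fewer arrays. In the main fit Cst3 was near the threshold (limma adjusted p = 0.049). With 1 array left out, Cst3 lost its call in all 7 fits and Aldoc in 4 of 7. With every array kept, Cst3 also lost it without the dim-gene filter (limma adjusted p = 0.0628). Without NSC array 6 the lower calls numbered 3. The NSC arrays held granule lineage signal near that of GNP. Atoh1 read 8.94, 8.92 and 8.93 in NSC, and 8.77, 8.96, 8.80 and 8.89 in GNP. The median of the granule neuron progenitor genes was 10.52 to 10.58 over the NSC arrays and 10.72 to 10.82 over the GNP arrays. The part of granule cells in the comparisons with NSC was not tested.

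GNP tumor was called higher than NSC for the same 3 genes, S100b (3.58 ± 0.25, SE), Gfap (2.00 ± 0.23) and Slc1a2 (0.74 ± 0.12), and lower for Gja1 (-2.50 ± 0.26) and Aldh1l1 (-1.98 ± 0.19). Of all genes, 47.6% were called, 22.2% higher and 25.4% lower. Gdf10, Aldoc and Cst3 had 0.09 ± 0.27, 0.11 ± 0.26 and 0.07 ± 0.13. Aqp4 (-1.13 ± 0.59) and Gjb6 (-1.97 ± 0.81) were not called, and both were when the 2 groups alone were fitted (limma adjusted p = 5.55e-07 and 4.55e-06). These comparisons and that of NEP tumor share the 3 NSC arrays. Of the 15 pericyte, fibroblast and meningeal genes, 9 were called lower and 2 higher in NEP tumor than in NSC, and 10 lower and 0 higher in GNP tumor. The log2 of their summed signal was 10.78 to 11.50 in NEP tumor, 10.71 to 10.81 in GNP tumor and 12.66 to 12.68 in NSC. Endothelial genes were called lower for 7 of 12 in NEP tumor and 12 of 12 in GNP tumor. Their part in the glial differences was not tested.

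NEP was called higher than NSC for 8 genes, from Gdf10 (4.67 ± 0.27, SE) and Aldh1l1 (4.55 ± 0.19) to Cst3 (1.13 ± 0.13). Of all genes, 58.4% were called, 30.9% higher and 27.6% lower. Gja1 (0.40 ± 0.26) and Gjb6 (-0.37 ± 0.81) were not called. Gjb6 gave 1.75 (limma adjusted p = 8.48e-07) with NEP arrays 1 and 2 only and -2.49 (limma adjusted p = 7.61e-09) with arrays 3 and 4 only. Because these pairs were chosen after seeing the split, and either choice takes it out of the variance, those p-values follow from the selection. GNP was called lower than NSC for all 10, from Aqp4 (-6.62 ± 0.59) to Slc1a2 (-0.44 ± 0.12), beside 13.1% lower and 23.2% higher of all genes (36.3% in all). Of the oligodendrocyte lineage genes, 7 of 9 were called higher in NEP than in NSC, and in GNP 13 of 15 pericyte, fibroblast and meningeal genes and 11 of 12 endothelial genes were called lower than in NSC. Their part was not tested.

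A longer list of 42 other astrocyte and Bergmann glia genes, 40 of them tested, gave counts of the same kind. In NEP against GNP, 39 were called higher and 0 lower, beside 29.6% higher and 39.9% lower of all genes, with a median of 4.42. The largest were Pla2g7 (8.25 ± 0.24, SE), an enzyme that degrades platelet-activating factor, Sparcl1 (7.53 ± 0.29), an astrocyte-secreted matrix protein, Timp4 (7.43 ± 0.18), a metalloprotease inhibitor, Id3 (7.10 ± 0.25), a target of BMP signalling, and Ttyh1 (6.58 ± 0.19), an anion channel. Timp4 lay under the array median on every GNP array, Pla2g7 on GNP arrays 1 to 3 and Id3 on GNP arrays 2 and 3. Their differences from GNP are therefore differences of array signal. Nfia, the transcription factor of the gliogenic switch, was the exception to the higher calls (-0.07, limma adjusted p = 0.472).

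Between tumors, 8 of the 40 were called lower in NEP tumor and 2 higher, beside 8.10% lower and 15.5% higher of all genes, with a median of -0.14 for the list and 0.05 for all genes. Sox9 (0.64 ± 0.16, SE) and Npas3 (0.55 ± 0.14), both transcription factors, were the higher ones. Slc15a2, a peptide transporter (-1.78 ± 0.49), Itih3 (-1.55 ± 0.18), Clu, the secreted chaperone clusterin (-1.45 ± 0.29), Ttyh1 (-1.13 ± 0.19) and Mlc1, a membrane protein of astrocyte endfeet (-0.97 ± 0.23), led the lower ones. Slc1a3, the glutamate transporter of Bergmann glia, read 8.18, 8.06, 8.53 and 8.38 in NEP tumor, 7.78, 7.93, 7.93 and 7.79 in GNP tumor, 10.74, 10.98, 10.93 and 11.14 in NEP, 4.40, 4.71, 4.48 and 5.18 in GNP, and 8.65, 8.74 and 8.26 in NSC.

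NEP tumor was called lower than NEP for 36 of the 40 genes, beside 32.6% of all genes, led by Mfge8 (-5.25 ± 0.13, SE), a bridging protein of phagocytosis, and Pla2g7 (-5.22 ± 0.24), and higher for Sox9 (0.93 ± 0.16) and Nfia (0.42 ± 0.09). GNP tumor was called higher than GNP for 30, beside 18.5% of all genes, led by Sparcl1 (5.06 ± 0.29) and the lipid carrier Apoe (4.50 ± 0.27), and lower for Mfge8 (limma adjusted p = 6.59e-06) and the filament gene Vim (-0.44 ± 0.10). Against NSC, NEP tumor had 5 higher and 20 lower calls among the 40, beside 23.9% and 20.4% of all genes, and GNP tumor 6 and 19, beside 22.2% and 25.4%. NEP had 35 higher and 1 lower (Nfia, -0.24 ± 0.09), beside 30.9% and 27.6%, and GNP 0 and 33, beside 23.2% and 13.1%.

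Genes that astrocytes switch on after injury were counted in the same way. Of the 11 tested, all were called higher in GNP tumor than in GNP, beside 18.5% of all genes, with a median of 1.60. Lcn2, Serpina3n, Timp1, Osmr, Steap4 and Tm4sf1 lay under the array median on every GNP array. S1pr3 did on all GNP arrays but array 4. Their differences from GNP are therefore differences of array signal. Lcn2 lay under the median on every NEP array too. In NEP tumor against NEP, 3 were called higher and 6 lower, beside 36.2% and 32.6% of all genes. Lcn2, an iron-siderophore carrier (3.76 ± 0.25, SE), the small heat shock protein gene Hspb1 (2.25 ± 0.36) and the chemokine gene Cxcl10 (1.31 ± 0.18) rose, and Ptx3 (-6.05 ± 0.12), S1pr3 (-4.94 ± 0.41) and Cd44 (-2.53 ± 0.12) were among those that fell. Lcn2 read 5.76, 5.78, 4.52 and 5.43 in NEP tumor and 6.13, 6.87, 6.33 and 6.19 in GNP tumor, against 1.68, 1.95, 1.37 and 1.42 in NEP, 2.08, 1.66, 1.46 and 1.60 in GNP, and 2.69, 2.35 and 2.10 in NSC. Within the run of the tumors, NEP tumor had 4 higher and 2 lower calls against NSC among the 11, and GNP tumor 7 and 2. Of all genes, 23.9% were called higher and 20.4% lower in NEP tumor, and 22.2% and 25.4% in GNP tumor. Ptx3 (-3.52 in NEP tumor, -3.04 in GNP tumor) and S1pr3 (-3.08 and -1.15) were the lower ones. Lcn2 was above NSC by 2.99 ± 0.27 in NEP tumor and by 4.00 ± 0.27 in GNP tumor. Myeloid cells also express Lcn2, and their part in its level was not tested. Between progenitors, 8 of the 11 were called higher in NEP than in GNP, beside 29.6% of all genes, led by S1pr3 (7.78 ± 0.41) and Ptx3 (7.08 ± 0.12), and between tumors 6 were lower in NEP tumor and 1 higher (Cxcl10, 0.71 ± 0.18), beside 8.10% and 15.5% of all genes.

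The members also differed among themselves. Each profile was centred on its own mean over the 19 arrays and set against the mean profile of the 10 by the mean absolute difference. Aldoc (0.681) and Cst3 (0.744) were nearest to that mean, and S100b (1.816) and Gja1 (1.496) farthest. Outside the list, the 8 nearest genes were Elk3 (0.244), Angpt1 (0.260), Bcan (0.275), Gatm (0.287), Itgb8 (0.297), Sox2 (0.299), Mt3 (0.321) and Spry1 (0.333). Taken singly, Aqp4 was most like S1pr3 (0.439) and Sparcl1 (0.706), Gfap like Nfkbiz (0.216) and Bhlhe40 (0.259), Gdf10 like Gpr37l1 (0.352) and Timp4 (0.363), and Aldoc like Apoe (0.369) and Ptprz1 (0.382). The nearest to S100b were Smoc1 (0.483) and Sox1 (0.682), to Gjb6 Cnn2 (0.346) and Foxc1 (0.386), to Gja1 Gulp1 (0.262) and Anxa6 (0.340), to Aldh1l1 Cyp26b1 (0.324) and Adgrg6 (0.389), to Slc1a2 Gpt2 (0.158) and Lpin2 (0.170), and to Cst3 Ikbip (0.142) and Cd81 (0.146).

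Several members had further probe sets, and these did not always give the same answer. All 3 Gfap probe sets had NEP tumor below GNP tumor and GNP lowest, with means of 5.48, 4.42 and 3.84 in NEP tumor and 6.41, 5.90 and 4.74 in GNP tumor. On the third of them NEP (4.91) was above GNP tumor. The 4 brighter Gja1 probe sets each had NEP highest and NEP tumor lowest. The lower call of Gja1 in NEP tumor against GNP tumor was lost on 4 of its 5 other probe sets (-0.64, -0.71, -0.23 and -0.04, limma adjusted p = 0.16, 0.065, 0.259 and 0.896) and kept on 1 (-0.81, limma adjusted p = 0.0308). For Slc1a2, a dimmer probe set put NEP tumor above NEP (5.45 against 4.50), the reverse of the brightest one (10.38 against 10.81). For Aqp4, the dimmest probe set did not separate the tumors from GNP (1.96 in NEP tumor, 1.87 in GNP tumor, 1.72 in GNP).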

How the data were processed

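Whole-genome Affymetrix Mouse430+2 arrays measured RNA extracted with Trizol, of which 100 ng was amplified per the labels' protocols. The series' deposited table holds log2 signals per probe set. The submitters' processing notes name RMA and the Affymetrix Expression Console, with no version. The log base is not stated and was checked on hybridisation spike-ins: Cre (100 pM) minus BioB (1.5 pM) was 5.33 to 6.10 per array, where log2 of the concentrations gives 6.06. Values ran from 0.292 to 13.368, and array medians from 2.439 to 2.567. Precision is limited by the number of arrays.

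Of 45101 probe sets, 64 were controls. The platform annotation gave 1 gene symbol to 34945, several to 932 and none to 9160, and only those with 1 symbol were used. Genes (18193, each by its brightest probe set on average) were tested when at or above the array median in at least 3 arrays (12148). limma 3.58.1 in R 4.3.3 was fitted with 5 group means and 1 variance per gene, with two-sided tests, Benjamini-Hochberg adjustment over all genes tested and a threshold of 0.05. The fit was tested on simulated data. Tables and profiles were handled in Python 3.11.15 with pandas 2.3.3. Groups and array numbers came from the titles. A gene was named as a member, as 1 of the 5 largest calls of a list in a direction, as 1 of 5 or fewer calls against its list, or by profile (the 8 genes nearest to the members' mean and the 2 nearest to each member). Slc1a3, Gjb2, Foxc1, C1qa, Cx3cr1, Atoh1, Pdgfra, Cspg4 and Ptch1 are shown besides. The members and lists were chosen with earlier results of these data known. Same-numbered arrays of 2 groups did not deviate together (correlations from -0.18 to 0.12), so the numbers were not taken as pairs. Alternatives changed the probe set rule, the dim-gene filter, the normalization, the arrays and groups fitted, the variance model and the array weights. Aqp4 has no sequence shown.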

Additional observations from a re-analysis of the deposited data

Results flagged for a closer look

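For all 10 genes the lineage difference in tumors (NEP tumor minus GNP tumor) differed from that in progenitors (NEP minus GNP) by limma's test of the difference itself. The tumor difference minus the progenitor difference was -9.63 for Aqp4 (limma adjusted p = 1.91e-08), -7.88 for Aldoc (4.65e-12), -7.86 for Aldh1l1 (1.13e-13), -7.30 for Gdf10 (2.54e-11) and -4.85 for S100b (1.63e-09). It was -3.56 for Gfap (2.91e-08), -3.53 for Gjb6 (0.00864), -2.50 for Gja1 (1.17e-05), -2.15 for Cst3 (1.24e-08) and -1.62 for Slc1a2 (3.2e-07). Of all genes tested, 61.9% were called in this comparison.

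In 4 of 40 groups of 4 arrays, 1 array stood far from the other 3 by the ratio of its gap to the group's range. Chance gives about 1 in 20 such groups. Aqp4 read 4.67 on GNP array 4, against 2.09 to 2.12 on the other GNP arrays. Gfap read 5.84 on NEP tumor array 2, Gja1 9.56 on GNP array 1 and Gjb6 3.68 on GNP tumor array 2.

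GNP array 4 had the highest GNP signal for 5 of the 10 genes, for 21 of 40 other astrocyte and Bergmann glia genes (52.5%), for 10 of 12 endothelial genes and for 10 of 15 pericyte, fibroblast and meningeal genes, against 35.3% of all genes. The part of other cells in the Aqp4 value was not tested.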

How the results depend on the processing

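Over 1807 recomputed values, 1700 kept their direction and side of the threshold, 67 lost a call, 32 gained one and 8 changed sign. All 10 calls of NEP minus GNP and of the interaction held under every alternative run on the chosen probe sets in which they were tested, and Gja1 lost both calls with its dimmest probe set. In NEP tumor minus GNP tumor the higher calls numbered 2 with the mean of all probe sets, 2 with only the groups compared, 3 with array weights, 2 with the replicate number as a block and 0 with NEP tumor arrays 1 and 2 only. The lower calls ranged from 2 (without NEP tumor replicate 2) to 5 (without NEP tumor replicate 3) when 1 array was left out, and numbered 1 with NEP tumor arrays 3 and 4 only. In NEP tumor minus NSC the lower calls were 3 to 5 with 1 array left out (3 without NSC replicate 1 or 6) and 2 with NEP tumor arrays 3 and 4 only. GNP tumor minus NSC had 4 lower calls with only the groups compared and 4 with array weights. NEP minus NSC had 1 lower call with NEP arrays 3 and 4 only. With the replicate block, NEP tumor minus NEP had 0 higher calls: S100b stayed at 1.01 (limma adjusted p = 0.0736). The numbers did not pair the arrays, and NSC shares too few of them for a block.

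Signs changed for Gjb6 in NEP minus NSC (1.19 with array weights, from -1.17 without NEP replicate 2 to 0.37 without NEP replicate 3, 0.31 without NEP replicate 4, 1.75 with NEP arrays 1 and 2 only) and in NEP tumor minus NEP (0.01 with NEP arrays 3 and 4 only), for Slc1a2 in NEP tumor minus NEP (0.05 with the mean of all probe sets, 0.95 with a dimmer probe set), and for Aqp4 in NEP tumor minus GNP tumor (0.09 with the dimmest probe set). The cause was not tested. Gjb6 was left untested by the filter at the 75th percentile. The selections of NEP and NEP tumor arrays were chosen after seeing the data. Centring arrays on the median gene moved the median of all genes from -0.11 to -0.59 in NEP minus GNP, and from 0.05 to 0.47 in NEP tumor minus NEP; all 10 members were called higher in NEP there too. Signals under the array median limit what can be said of Gjb6, S100b and, on 3 of 4 arrays, Aqp4 in GNP. The same holds for the genes of the longer lists named above as under it.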
